A study of Mus musculus with 16 samples.

Results

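Kv4 channels carry the fast, subthreshold A-type potassium current of neuronal dendrites. In CA1 pyramidal cells this current grows with distance from the cell body and dampens back-propagating action potentials and synaptic depolarisation. The pore is a tetramer of Kv4 subunits, and the channel in neurons also holds cytoplasmic KChIP calcium-binding subunits and single-pass DPP-like subunits, both of which set its traffic to the surface and its gating. The product of Fmr1 is FMRP, which binds mRNAs and holds back their translation, and Kcnd2 mRNA is among its reported ligands. The 7 genes described here were taken by symbol and are Kcnd2 and Kcnd3 (pore), Kcnip2, Kcnip3 and Kcnip4 (KChIP) and Dpp6 and Dpp10 (DPP-like). They are 7 of the 46403 symbols in the deposited tables and have 41 of the 111706 transcripts.

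RNA of the CA1 subfield of the hippocampus was sequenced from 8 mice labelled Fmr1-KO and 8 labelled wild type (WT, given as C57BL/6). All 16 were yoked controls for active place avoidance, a task in which a rodent learns to stay out of a shock zone on a rotating arena. The labels give no age and no further detail of the Fmr1 allele, and do not state if mice of both genotypes came from the same litters. The libraries are labelled by a number joined to the letter B or D. Of these numbers 6 occur on 2 libraries of the same genotype, once with each letter, and the labels do not state what number or letter stands for. The p-values below measure the spread between these libraries, which were taken as separate animals.

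Depth was 1480966 to 2979481 estimated counts in the Fmr1-KO libraries and 2126632 to 3275003 in WT, except WT replicates 3 and 6 with 878484 and 515103. In those 2 libraries 10.35% and 31.59% of the counts fell on the 10 largest genes, where the other 14 had 3.73% to 6.06%, and values without them are given below where they set a range or a fold change. Fmr1 itself, the targeted gene, stood at 8.44 to 32.0 CPM (read counts on a shared depth scale, set by the TMM method) in Fmr1-KO libraries and at 39.6 to 99.7 CPM in WT libraries, without overlap. In TPM, a measure defined below, the groups overlapped, at 6.89 to 24.7 in Fmr1-KO and 7.88 to 43.3 in WT (13.5 to 43.3 without WT replicates 3 and 6). The tissue label was checked against markers of CA1 pyramidal cells. Wfs1 stood at 811 to 1092 in Fmr1-KO and 730 to 1187 CPM in WT, and Fibcd1 at 676 to 815 and 614 to 729 CPM, while of 5 CA3 markers Iyd and Coch were at 0 in most libraries. The CA3 marker Grik4 was above 0 in all 16 libraries, at 5.03 to 14.1 in Fmr1-KO and 3.42 to 120.4 CPM in WT (up to 19.8 CPM without WT replicates 3 and 6). The CA2 marker Rgs14 stood at 125 to 184 in Fmr1-KO and 96.3 to 163 CPM in WT. Lct of the dentate list stood at 131 to 219 and 117 to 215 CPM, and Kl of the choroid plexus list at 61.0 to 94.5 and 30.0 to 111 CPM. The other markers of these lists had medians of at most 5.85 CPM. Of 6 CA1 markers, 2 had a higher and 4 a lower fitted level in Fmr1-KO. A share of tissue from outside CA1 was not tested. All 27 tested markers of astrocytes, oligodendrocytes, their precursors, microglia and endothelium had lower fitted levels in Fmr1-KO (median log2 fold change −0.42). Of them 6 were at an unadjusted p under 0.05 and none past adjustment in edgeR. Without WT replicates 3 and 6, 24 of 27 were lower (median −0.22), and 2 of 27 at an unadjusted p under 0.05. Of all 11515 genes tested over the 16 libraries 51.9% were lower, and 4.28% were lower at an unadjusted p under 0.05. The part of these cells in the results below was not tested, and in such bulk tissue fewer cells of a type and less RNA per cell cannot be told apart.

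No gene of the complex passed the test for a genotype difference. All 7 had enough counts to be tested, and 0 of 7 fell under the adjusted p threshold of 0.05 (quasi-likelihood test of edgeR), where 0.0174% of the 11515 genes tested did (2 genes). At an unadjusted p under 0.05 there was 1 member, Dpp6, higher in Fmr1-KO, against a background of 7.89% of all genes in either direction and 3.61% in that direction. The fitted level was higher in Fmr1-KO for 2 members and lower for 5, with a median log2 fold change of −0.03, beside −0.01 over all genes tested. In CPM the groups overlapped for each of the 7 genes, and 0.0434% of all genes tested (5 genes) had groups that did not overlap. With limma-voom 0 of 7 passed. There the unadjusted p was under 0.05 for Kcnd2 (0.0229, adjusted p = 0.318) and Dpp6 (0.025, adjusted p = 0.327). The same held for 1449 of the 11515 genes tested with limma-voom. DESeq2 gave an adjusted p for 3 of 7, none of them under the threshold, and none for Kcnd3, Kcnip3, Kcnip4 and Dpp10.

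**Figure D1:**
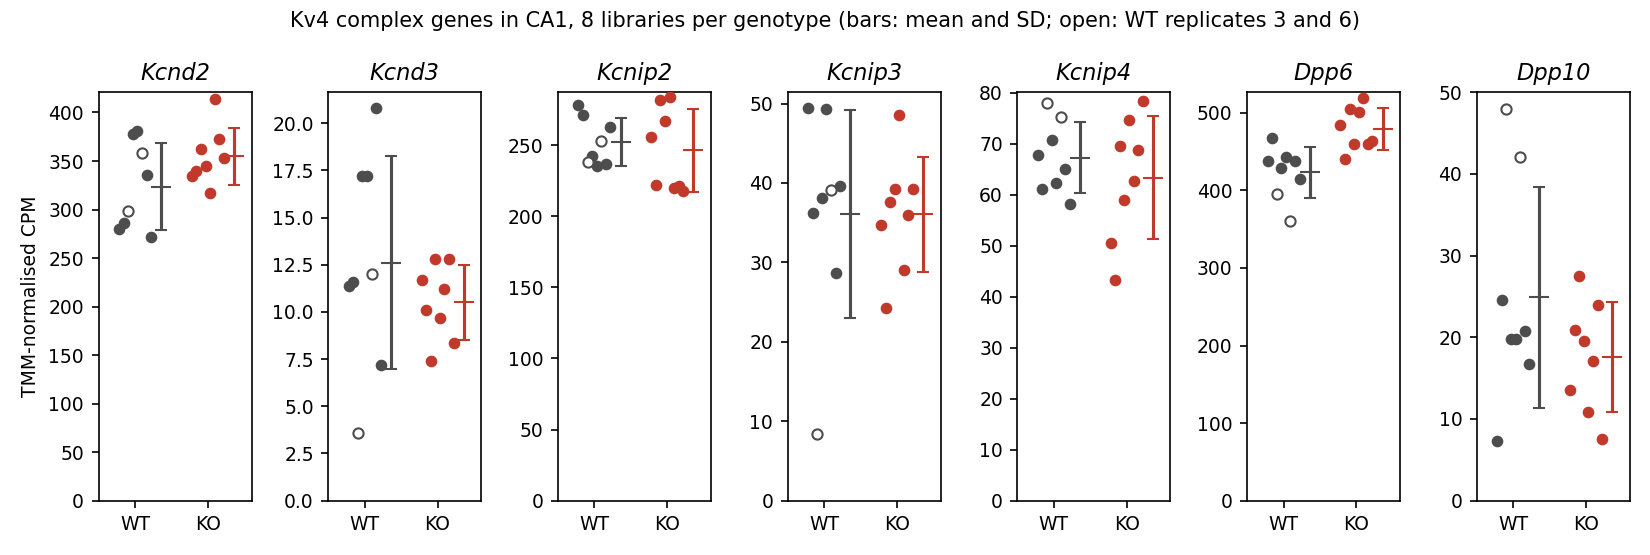
TMM-normalised CPM (vertical axes, each from 0) of the 7 genes in WT and Fmr1-KO (KO) libraries. Each point is a library, open points are WT replicates 3 and 6, and the bars give mean and SD (n = 8 each). The groups overlap in every panel. The Dpp6 panel has its 8 Fmr1-KO points between 440.3 and 519 CPM and its WT points between 361 and 467 CPM.

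Across genes, levels were compared in TPM, a relative transcript abundance that accounts for length. Kcnip2 and Dpp6 were the most abundant, with medians of 187 and 183 TPM over the 16 libraries. They were followed by Kcnd2 with 109 TPM, Kcnip4 with 54.7, Kcnip3 with 24.6, Dpp10 with 5.75 and Kcnd3 with 3.46. Kcnip2 stood above 94.8% of the genes tested, Dpp6 above 94.6% and Kcnd2 above 89.3%, whereas Dpp10 stood above 14.2% and Kcnd3 above 7.12%. Each class of subunit thus had 1 gene with a high level and at least 1 with a lower level.

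The order held within single libraries for most neighbours. Dpp6 exceeded Kcnd2, Kcnd2 exceeded Kcnip4, and Kcnip4 exceeded Kcnip3 in 16 of 16 libraries. Kcnip3 exceeded Dpp10 in 15 and Dpp10 exceeded Kcnd3 in 13. Kcnip2 exceeded Dpp6 in 9 of 16, so the top neighbours were not ordered beyond their spread. The TPM of WT replicates 3 and 6 were the lowest or close to the lowest for most members, for example 43.4 and 14.3 TPM for Kcnd2 against 75.1 to 163 TPM in the other 14 libraries.

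**Figure D2:**
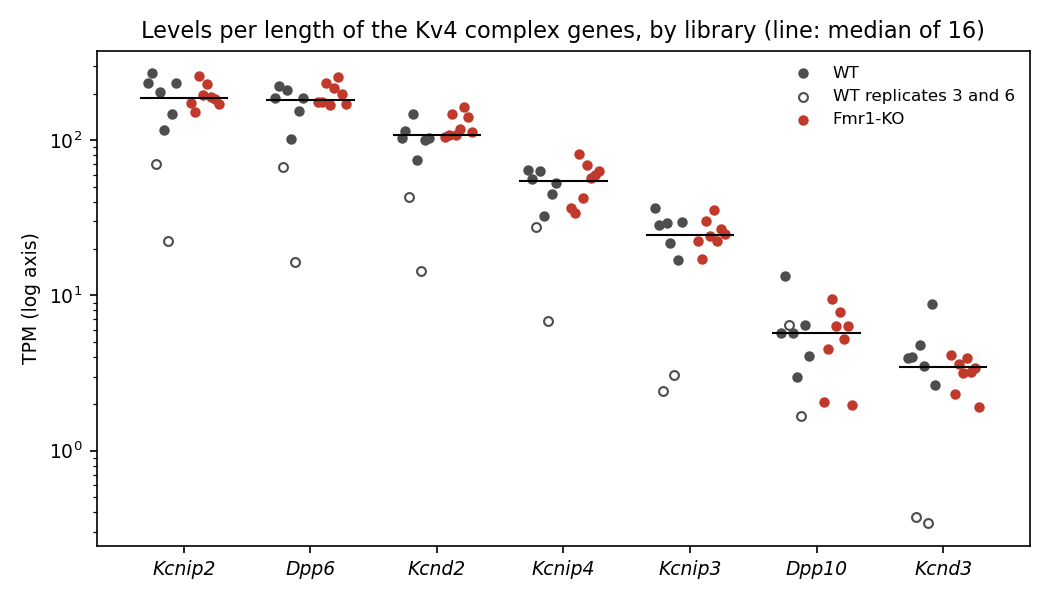
TPM on a log axis of the 7 genes, ordered by their median over 16 libraries (line), with 1 point per library. The order runs from Kcnip2 (median 187 TPM) and Dpp6 (183 TPM) to Dpp10 (5.75 TPM) and Kcnd3 (3.46 TPM), and the open points of WT replicates 3 and 6 lie low for most genes.

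Kcnd2 encodes Kv4.2, the main pore subunit of the dendritic A-type current in CA1. It lies on chromosome 6 at 21215503 to 21729805 (GRCm38, plus strand, ENSMUSG00000060882). Its lowest, median and highest levels were 317, 349 and 414 in Fmr1-KO and 272, 317 and 381 CPM in WT. All 8 Fmr1-KO libraries lay above the WT median and 4 WT libraries lay below the lowest Fmr1-KO library, but 3 WT libraries exceeded the Fmr1-KO median. Fmr1-KO libraries averaged 355 ± 29.2 CPM and WT libraries 324 ± 45.1 CPM (SD, n = 8 each). This gave a log2 fold change of 0.14 (SE 0.09, 95% interval −0.05 to 0.32), for which edgeR returned an adjusted p of 0.721. As a ratio, the interval runs from 0.968 to 1.25, so a larger fall or rise of the Kcnd2 transcript lies outside it. Kcnd2 has a single annotated transcript, and each of that transcript's 31-base words occurs in no other transcript of the reference, so its count does not depend on how shared reads were divided.

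Kcnd3 encodes Kv4.3, the pore subunit that in hippocampus is best known from interneurons. Its locus is on chromosome 3 at 105452330 to 105674002 (plus strand, ENSMUSG00000040896). Its levels ran from 7.38 through a median of 10.6 to 12.8 in Fmr1-KO and from 3.6 through 11.8 to 20.8 CPM in WT. The WT libraries spread on both sides of the Fmr1-KO range, with 2 below and 3 above it. On the log2 scale the difference was −0.29 (SE 0.29, 95% interval −0.89 to 0.30, adjusted p = 0.829 in edgeR). Counts were small, 27.8 on average per library and only 3 and 4 in WT replicates 3 and 6, and a fall to 0.54 or a rise to 1.23 of the WT level was within the interval. The transcript Kcnd3-002 held 87.1% of the Kcnd3 counts and led in all 16 libraries. Within libraries the TPM of Kcnd2 was 11.6 to 117 times that of Kcnd3, with a median of 36.5. The 117 came from WT replicate 3, and without WT replicates 3 and 6 the highest ratio was 59.5 in Fmr1-KO and 38.8 in WT. An antisense gene, Kcnd3os, shares 165 exonic bases with Kcnd3, and since strandedness is not given in the sources used here, reads from those bases cannot be assigned to a strand. Kcnd3os had a mean estimated count of 0.69.

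Kcnip2 encodes KChIP2, an EF-hand protein that raises Kv4 surface expression. The gene is on chromosome 19 at 45791839 to 45816061 (minus strand, ENSMUSG00000025221). Lowest, median and highest levels were 218, 239 and 284 in Fmr1-KO and 235, 247 and 278 CPM in WT. The Fmr1-KO libraries spanned a wider range that held the whole WT range, with 4 of them below the lowest WT library and 2 above the highest. Its log2 fold change came to −0.03 (SE 0.08, 95% interval −0.20 to 0.14, adjusted p = 0.946 in edgeR), or a ratio between 0.868 and 1.10. Kcnip2 accounted for a median of 70.1% of the summed Kcnip2, Kcnip3 and Kcnip4 TPM in each genotype, with a range of 66.1% to 76.1% over the 16 libraries.

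The Kcnip2 counts were divided mainly between a coding transcript, Kcnip2-003, and Kcnip2-004, annotated as retaining an intron. Kcnip2-003 held 73.4% of the counts and Kcnip2-004 held 23.2%. The retained-intron transcript stood at 35.4 to 79.8 CPM in Fmr1-KO (median 53.3) and 47.2 to 101 CPM in WT (median 63.6), the highest being WT replicate 3. Its groups overlapped, and neither its level (log2 fold change −0.23, SE 0.19, adjusted p = 1 in edgeR) nor its use relative to Kcnip2-003 (adjusted p = 1 in diffSpliceDGE of edgeR) passed the test. In limma-voom its log2 fold change was −0.08, and in edgeR with WT replicates 3 and 6 omitted it was −0.09. For Kcnip2-004, 22.15% of the 31-base words are found in no other transcript, and for Kcnip2-003, 2.79%.

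Kcnip3 encodes KChIP3, also known as DREAM and calsenilin, a calcium sensor that has also been described as a transcriptional repressor. Its position is chromosome 2 at 127456498 to 127522094 (minus strand, ENSMUSG00000079056). Its levels were 24.3, 36.8 and 48.5 CPM (lowest, median, highest) in Fmr1-KO and 8.40, 38.6 and 49.4 CPM in WT. Apart from WT replicate 3 with 8.40 CPM, which rests on 7 counts, the groups covered nearly the same range. The log2 fold change was −0.02 (SE 0.22, 95% interval −0.48 to 0.43, adjusted p = 0.985 in edgeR).

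Kcnip3 also shows how little sequence can separate deposited transcript values. Kcnip3-003 held 67.5% of the gene's counts and Kcnip3-001 held 31%, and both come from the same start. After 299 identical bases they differ by 4 bases, in capitals below, which are present in Kcnip3-003 and absent from Kcnip3-001. The stretches around that point, shown because every read that tells the pair apart must cross it, read 5′ to 3′ in GENCODE M21:
Kcnip3-001: ccacaaggctcagcagtgacagtgaa
Kcnip3-003: ccacaaggctcagACAGcagtgacagtgaa
The annotated coding length is 852 bases for Kcnip3-001 and 768 bases for Kcnip3-003. Kcnip3-003 has 28 words of 31 bases found in no other transcript and Kcnip3-001 has 0. The share of Kcnip3-001 ran from 0% to 100% of the gene in Fmr1-KO and likewise from 0% to 100% in WT. Kcnip3-001 was the larger of the pair in 5 of 16 libraries. No difference in use was detected at this depth (adjusted p = 1 for both in diffSpliceDGE), and the intervals were wide, −2.75 to 1.74 on the log2 scale for the level of Kcnip3-001.

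Kcnip4 encodes KChIP4, whose variant KChIP4a is known to remove fast inactivation from Kv4 channels. It lies on chromosome 5 at 48389502 to 49524907 (minus strand, ENSMUSG00000029088). Its levels were 43.2, 65.7 and 78.4 in Fmr1-KO and 58.1, 66.4 and 78.0 CPM in WT (lowest, median, highest). The highest libraries of both groups were close, and 2 Fmr1-KO libraries lay below all WT libraries. Fmr1-KO differed from WT by −0.07 on the log2 scale (SE 0.12, 95% interval −0.32 to 0.19, adjusted p = 0.922 in edgeR). Kcnip4-001 held 86.4% of the counts and led in 15 of 16 libraries. Kcnip4 shares 99 exonic bases with the antisense gene Gm20700 (mean estimated count 3.69) and 168 with 5730480H06Rik on the opposite strand.

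Dpp6 encodes a membrane protein related to dipeptidyl peptidases that lacks their enzyme activity, speeds Kv4 gating and is needed for the dendritic gradient of A-type current in CA1. It lies on chromosome 5 at 26817203 to 27727505 (plus strand, ENSMUSG00000061576). Its levels were 440.3, 474 and 519 in Fmr1-KO and 361, 433 and 467 CPM in WT (lowest, median, highest). All 8 Fmr1-KO libraries lay above the WT median and 6 of 8 WT libraries lay below the lowest Fmr1-KO library. Fmr1-KO libraries averaged 479 ± 27.3 CPM and WT libraries 423 ± 32.7 CPM (SD, n = 8 each), at a ratio of 1.13 (95% interval 1.02 to 1.25). The log2 fold change of 0.17 (SE 0.07) had an unadjusted p of 0.0223 and an adjusted p of 0.597 in edgeR, so the difference did not pass. Without WT replicates 3 and 6 the log2 fold change was 0.13 (unadjusted p = 0.067, adjusted p = 0.697), and the WT mean was 438 ± 17.3 CPM (n = 6).

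Dpp6 transcripts begin at several places, and reads were assigned mostly to one. The start of Dpp6-006 and Dpp6-007 held 90.1% of the pooled Dpp6 counts. The nearby starts of Dpp6-002 and Dpp6-009 together held 8.41%. The most upstream starts, those of Dpp6-001, Dpp6-003 and Dpp6-004, lie close together and jointly held 0.222%. Dpp6-005 and Dpp6-008, with starts of their own, held 0.577% and 0.687%. The main start held 87.3% to 93.1% in the Fmr1-KO libraries and 70.5% to 95.8% in the WT libraries, with the 70.5% in WT replicate 6. The 250 bases before each of the starts that RefSeq lists (GRCm38.p6, plus strand) are given 5′ to 3′ because they set the little used starts beside the main one, with each CG in capitals. The RefSeq start lies 40 bases from the GENCODE start of Dpp6-006 and at that of Dpp6-001 and of Dpp6-002. Dpp6-004 starts at 26817203, inside the window printed for the Dpp6-001 start.
Dpp6-001 start, chr5:26817107-26817356: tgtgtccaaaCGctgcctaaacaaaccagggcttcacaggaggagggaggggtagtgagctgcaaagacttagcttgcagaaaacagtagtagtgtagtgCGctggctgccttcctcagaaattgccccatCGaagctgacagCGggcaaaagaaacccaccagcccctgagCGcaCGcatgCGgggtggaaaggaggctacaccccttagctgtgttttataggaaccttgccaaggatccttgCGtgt
Dpp6-002 start, chr5:27048949-27049198: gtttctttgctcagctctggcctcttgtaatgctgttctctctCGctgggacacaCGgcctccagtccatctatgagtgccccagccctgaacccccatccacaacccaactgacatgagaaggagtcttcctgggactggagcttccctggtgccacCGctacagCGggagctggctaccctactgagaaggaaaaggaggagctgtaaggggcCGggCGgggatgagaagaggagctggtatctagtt
Dpp6-006 start, chr5:27261685-27261934: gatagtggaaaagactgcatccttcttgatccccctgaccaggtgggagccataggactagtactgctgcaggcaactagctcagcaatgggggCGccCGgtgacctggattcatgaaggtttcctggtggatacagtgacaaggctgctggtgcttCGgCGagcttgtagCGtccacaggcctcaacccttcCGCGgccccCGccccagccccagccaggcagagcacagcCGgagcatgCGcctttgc
The windows hold 8, 6 and 10 CG in that order, beside a median of 6 over the 32851 windows of the same length in the table. On either strand, TATAAA occurs before the Dpp6-001 start only among the 3 and in 12.37% of all windows. GGGCGG occurs before the Dpp6-002 and Dpp6-006 starts and in 32.74% of all windows.

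The main transcript, Dpp6-006, was the one measure of the complex whose groups did not overlap. Its lowest, median and highest levels were 408, 431 and 469 in Fmr1-KO and 254, 395 and 401 CPM in WT. Thus every Fmr1-KO library lay above every WT library, though the gap between 401 and 408 CPM was small. Over all 16772 transcripts tested, 0.0238% (4 transcripts) had groups without overlap on this scale and 0.0119% (2 transcripts) were higher in Fmr1-KO. Fmr1-KO libraries averaged 433 ± 18.4 CPM and WT libraries 375.0 ± 49.7 CPM (SD, n = 8 each). With CPM scaled by library totals instead, 7 of 8 Fmr1-KO libraries lay above the highest WT library (422 CPM), and in TPM 4 of 8 did.

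The test across all transcripts did not call it. For Dpp6-006 the fitted difference was 0.21 on the log2 scale (SE 0.09, 95% interval 0.03 to 0.40), with an unadjusted p of 0.0277 and an adjusted p of 1 in edgeR. The adjusted p was 0.065 in the DESeq2 Wald test (0.149 at that tool's default alpha) and 0.602 in limma-voom. Without WT replicates 3 and 6 the log2 fold change was 0.12 (unadjusted p = 0.0206, adjusted p = 0.999), and without WT replicate 6 alone it was 0.15. The other 6 WT libraries stood at 374 to 401 CPM. Leaving out libraries cannot create an overlap where there was none, so the lack of overlap without those 2 adds no support. Only 28 of the 31-base words of Dpp6-006 (0.63%) are found in no other transcript. Of its words 91.32% also occur in Dpp6-002, and 86.87% of those of Dpp6-002 occur in Dpp6-006. Its level thus rests largely on the model that divided the shared reads.

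**Figure D3:**
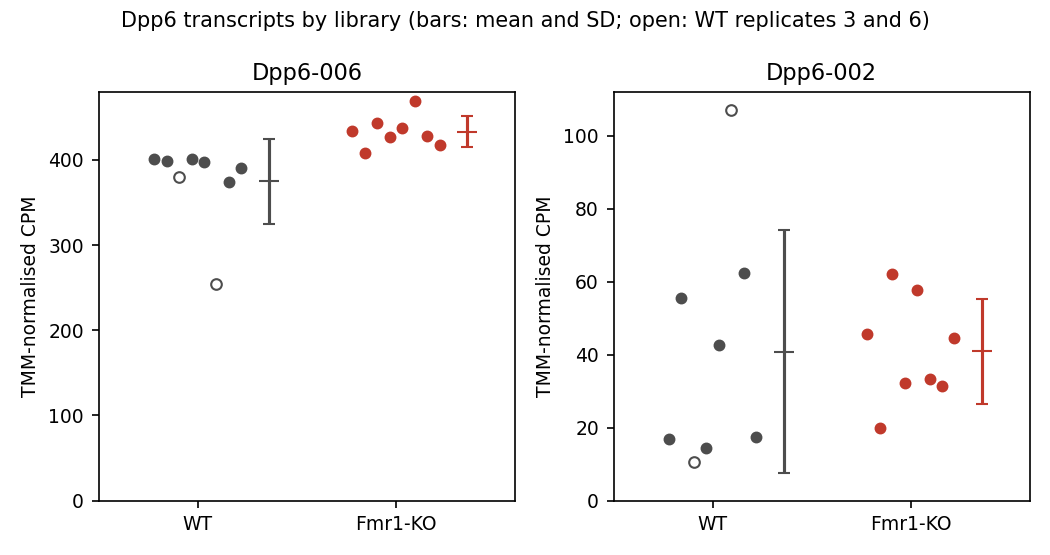
TMM-normalised CPM (vertical axes from 0) of Dpp6-006 and Dpp6-002 in each library, with mean and SD (n = 8 each) and WT replicates 3 and 6 as open points. For Dpp6-006 the Fmr1-KO points lie at 408 to 469 CPM and the WT points at 254 to 401 CPM. For Dpp6-002 the groups overlap.

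The second Dpp6 transcript gave no such separation. Dpp6-002 stood at 20.0 to 62.0 CPM in Fmr1-KO (median 38.9) and 10.5 to 107 CPM in WT (median 30.1). Its WT libraries lay on both sides of the Fmr1-KO range, and the lowest and highest were WT replicates 3 and 6, without which WT ran from 14.5 to 62.4 CPM. Its log2 fold change was 0.06 (SE 0.42, adjusted p = 1 in edgeR), 0.37 without WT replicate 6 and 0.23 without both libraries. The use of Dpp6-006 relative to Dpp6-002 did not pass (adjusted p = 1 in diffSpliceDGE). The annotated coding length is 2409 bases for Dpp6-006 and 2577 bases for Dpp6-002.

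Dpp10 encodes the second DPP-like subunit, which in hippocampus is known from interneurons. The gene spans chromosome 1 at 123321471 to 124045559 (minus strand, ENSMUSG00000036815). Its levels were 7.49, 18.4 and 27.5 in Fmr1-KO and 7.35, 20.3 and 48.0 CPM in WT (lowest, median, highest). The highest values were those of WT replicates 3 and 6, 48.0 and 42.1 CPM, and the other 6 WT libraries stood at 7.35 to 24.6 CPM, within or close to the Fmr1-KO range. The log2 fold change was −0.39 (SE 0.32, 95% interval −1.05 to 0.27, adjusted p = 0.789 in edgeR). It was −0.17 without WT replicate 3, −0.28 without WT replicate 6 and −0.04 without both (adjusted p = 0.986). The highest WT sums of the astrocyte, microglial and endothelial markers were also in 1 of these 2 libraries, for example 1784 CPM for astrocytes against at most 822 CPM in the other 6 WT libraries, and the part of those cells in the Dpp10 values was not tested.

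Dpp10 reads were divided between Dpp10-002 with 53.7% and Dpp10-001 with 44.7%. Dpp10-002 was the smaller of the pair in 5 of 16 libraries. It has no 31-base word of its own, and 99.17% of its words occur in Dpp10-001. Of the words of Dpp10-001, 65.79% are found in no other transcript and 5.33% also occur in transcripts of other genes. Reads from shared words were divided by a model, so both values are uncertain. Neither level nor use passed, with log2 fold changes of −0.79 (SE 0.52) for Dpp10-002 and 0.04 (SE 0.44) for Dpp10-001 (adjusted p = 1 for both in edgeR). The highest Dpp10-002 values, 34.7 and 33.6 CPM, were those of WT replicates 3 and 6, beside 2.67 to 18.8 CPM in the other WT and 2.49 to 15.3 CPM in the Fmr1-KO libraries. The log2 fold change of Dpp10-002 was −0.18 without both and −0.10 in limma-voom.

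Of the 41 transcripts of the 7 genes, 11 had enough counts for a test and 6 were listed at 0 in every library. In edgeR 0 of the 11 passed, where 0.00596% of the transcripts tested did (1 transcript). At an unadjusted p under 0.05 there was 1 of 11, Dpp6-006, against 3.91% of all transcripts tested. DESeq2 gave no adjusted p for 8 of the 11. Use relative to the gene's other transcripts could be tested for 8 transcripts of 4 genes. In diffSpliceDGE 0 of 8 passed and 0 of 8 had an unadjusted p under 0.05, beside 0.0209% and 1.23% of the 9570 transcripts in that test.

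**Figure D4:**
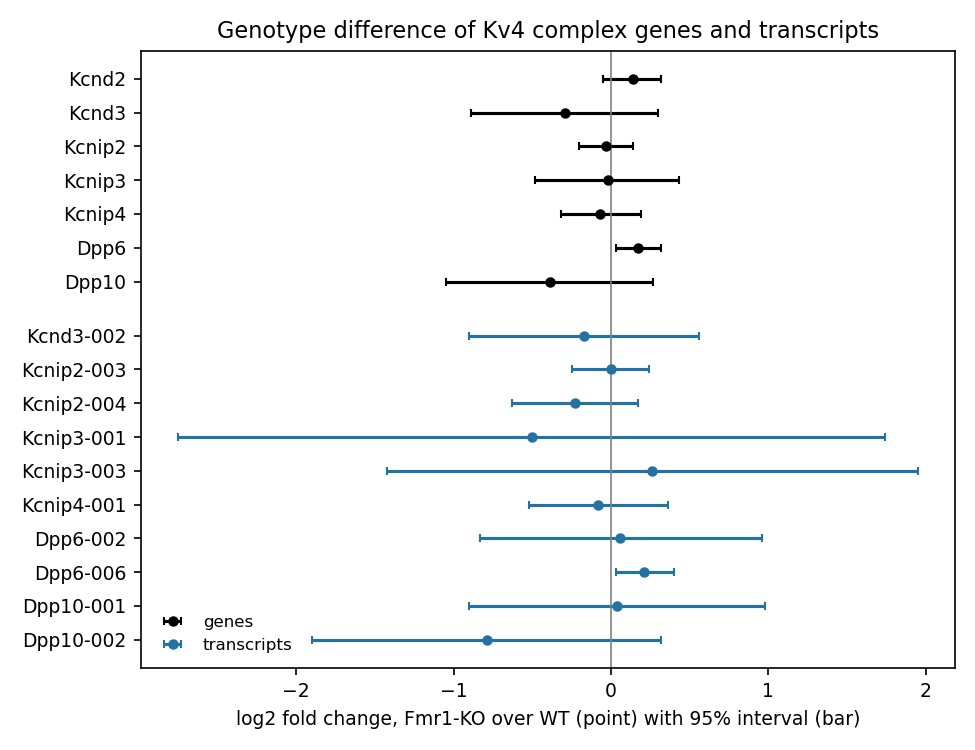
Log2 fold change of Fmr1-KO over WT (horizontal axis, point) with its 95% interval (bar) for the 7 genes (black) and for 10 tested transcripts (blue); Kcnd2-001, which equals its gene, is left out. The intervals of Dpp6 (0.03 to 0.32) and Dpp6-006 (0.03 to 0.40) lie above 0 before adjustment for multiple tests, and all others include 0.

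**Figure D5:**
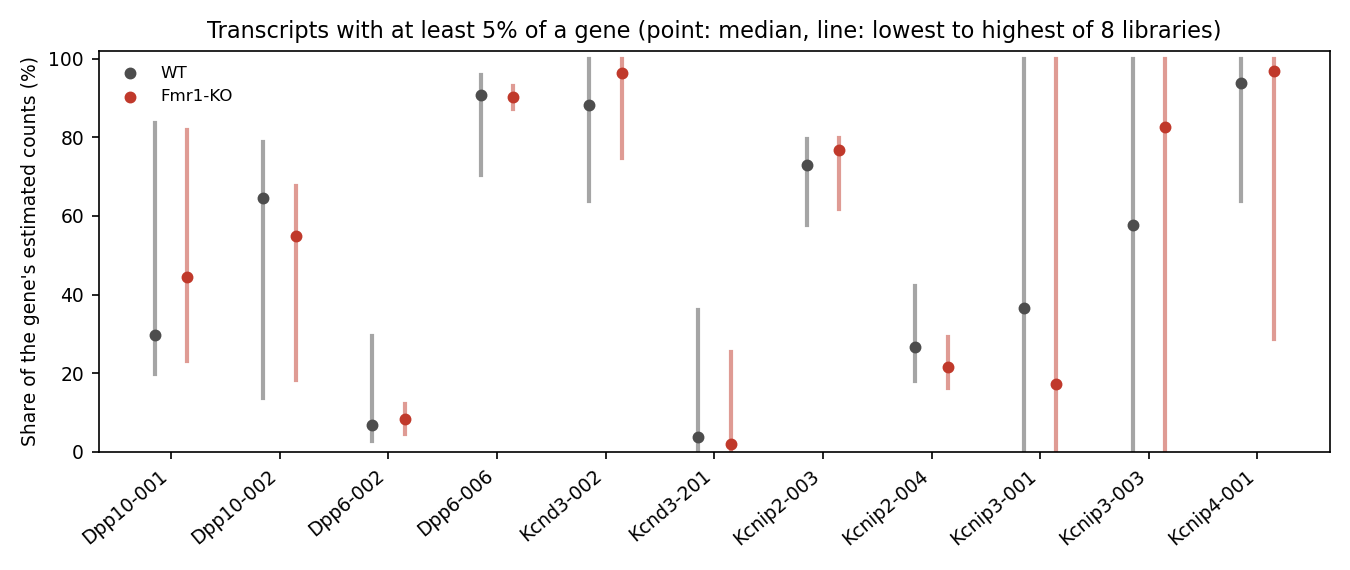
Share of the gene's estimated counts in percent (vertical axis) for transcripts with at least 5% of a gene, as median (point) and lowest to highest (line) of 8 libraries per genotype. Dpp6-006 lies near 90%, with lines from 87.3% to 93.1% in Fmr1-KO and from 70.5% to 95.8% in WT, while Kcnip3-001 and Kcnip3-003 span 0% to 100% in both genotypes.

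The other genes of the pathway also gave no call in edgeR. Of 9 further Kv4 family and auxiliary subunits 5 were tested, 2 with a higher and 3 with a lower fitted level, and 0 passed (median log2 fold change −0.01). Kcne1l, Kcne2, Kcne3 and Kcne4 had too few counts. The smallest p was that of Kcnip1, which encodes KChIP1, a subunit mostly known from interneurons. Kcnip1 stood at 0.469, 4.55 and 9.81 in Fmr1-KO and 6.73, 9.64 and 39.1 CPM in WT (lowest, median, highest), with the highest WT values, 21.6 and 39.1 CPM, in WT replicates 3 and 6. Its log2 fold change was −1.11 (SE 0.45, unadjusted p = 0.0226, adjusted p = 0.597), and −0.60 without those 2 libraries (adjusted p = 0.759). Kcnd1, the third Kv4 pore gene, stood at 7.05 to 23.6 in Fmr1-KO and 0 to 27.1 CPM in WT (adjusted p = 0.807 in edgeR). The 0 and the 27.1 CPM were WT replicates 3 and 6, and the other WT libraries ran from 5.23 to 16.4 CPM.

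All 24 kinases, phosphatases, scaffolds and other partners of Kv4 channels were tested, 16 with a higher and 8 with a lower fitted level, and 0 passed (median log2 fold change 0.08), beside 48.1% higher and 51.9% lower of all genes tested. At an unadjusted p under 0.05 there were 3 higher and 2 lower, where 3.61% and 4.28% of all genes were. Cacna1g, which encodes the T-type calcium channel Cav3.1, one of the channels reported to couple to Kv4 through KChIPs, had the smallest p. It stood at 35, 58.4 and 85.8 in Fmr1-KO and 61.2, 96.1 and 138 CPM in WT (lowest, median, highest). Every Fmr1-KO library lay below the WT median and 6 lay below all WT libraries. On the log2 scale it was lower by a fitted difference of −0.77 (SE 0.19). Its adjusted p was 0.506 in edgeR, 0.11 when WT replicates 3 and 6 were omitted and 0.0249 under limma-voom, the only setting with an adjusted p that called it. DESeq2 gave an unadjusted p of 6.41e-05 and no adjusted p.

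Camk2b, a subunit of the calcium/calmodulin-dependent kinase II, which is known to phosphorylate Kv4.2, stood at 2240.3, 2509 and 2643 in Fmr1-KO and 2036, 2149.9 and 2483 CPM in WT (lowest, median, highest). In 5 of 8 Fmr1-KO libraries it lay above the highest WT library. Its log2 fold change was 0.17 (SE 0.07, adjusted p = 0.59). Dlg1 (SAP97), a scaffold that binds the Kv4.2 tail, had medians of 33.0 and 40.5 CPM and a log2 difference of −0.33 (SE 0.14, adjusted p = 0.617). Of 12 other fast or dendritic potassium and HCN channels 11 were tested, 8 with a higher and 3 with a lower fitted level, 0 at an unadjusted p under 0.05 and 0 past the threshold (median log2 fold change 0.12). The smallest p there was that of Kcnq3, an M-current subunit, whose log2 difference was 0.25 (SE 0.13, adjusted p = 0.652).

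The genes whose levels followed each member most closely were taken from up to 6929 genes by Pearson's r of log2 CPM, centred within genotype, over 16 libraries. They were picked as the highest, the libraries share depth and composition, and r is a description only. For Kcnd2 they were Map9, Camk4 and Mapt (r = 0.88 each, and 0.88, 0.88 and 0.90 over the 14 libraries without WT replicates 3 and 6). For Kcnip2 they were Tma7 (r = 0.83 over 16 and 0.84 over 14), Map1lc3b (0.81 and 0.82) and Atp5e (0.78 and 0.78). For Kcnip4 the closest was Mib2 (0.79 and 0.86). For Dpp6 the closest was Ipo4, with 0.83 over 16 libraries and 0.70 over 14. For Kcnip3 it was Cmpk1 (0.96 and 0.83), for Kcnd3 Gigyf2 (0.92 and 0.85) and for Dpp10 Ankrd17 (0.85 and 0.82).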

How the data were processed

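Bulk RNA sequencing tables of 16 CA1 libraries (8 Fmr1-KO, 8 WT by label) were used. Per the submitters' processing notes, FastQC, cutadapt, kallisto and DESeq2 were used, and their versions, the build, the transcript index and the strandedness are not given in the sources used. The deposited estimated counts are reads that the authors' quantification divided among transcripts by a model, and can be fractional. The deposited TPM values are scaled by effective length within each library and hold no depth. Counts were summed per symbol and rounded. Genes, and likewise transcripts, were tested over the whole table with the edgeR 4.0.16 quasi-likelihood test (TMM, filterByExpr with a minimum count of 10, no covariate, R 4.3.3) and Benjamini-Hochberg adjustment at 0.05. Transcript use was tested with diffSpliceDGE. CPM of genes and transcripts use the TMM factors of the gene table. The standard error is the log2 fold change over the square root of F. The tests were also run on simulated counts with planted differences. The outcome is not given here, so that run does not bear on the results above.

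Positions, transcript sequences and exon overlaps came from GENCODE M21 (GRCm38), in which 41 of 41 member transcripts have the length given in the deposited files. Promoter windows came from RefSeq (GRCm38.p6). A word is any run of 31 bases of a transcript. Replicates were numbered in label order, which pairs no samples. Members, gene lists and marker lists were chosen with earlier results of these data known. Named were all members and their tested transcripts, Fmr1, genes from the up to 4 with the smallest p in each pathway list, and genes from the 3 most alike for each member (mean count of at least 50, prior count of 2). Alternatives were DESeq2 1.42.0, limma 3.58.1 with voom quality weights, other scalings and filters, log2(TPM + 1) and log2(TPM + 0.1), the animal label's letter as covariate, and the omission of libraries. Results for some of the genes on the pathway and marker lists are not reported here.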

Additional observations from a re-analysis of the deposited data

Results flagged for a closer look

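For each member gene and tested transcript, the highest and the lowest library of each genotype were compared with their nearest neighbour, and a gap whose share of the group's range exceeds Dixon's 95% critical value was taken as standing apart. This happened in 3 of 48 groups, and chance gives about 1 in 20. WT replicate 2 had 13.4 TPM of Dpp10, with the next WT library at 6.49 TPM. Fmr1-KO replicate 4 had 39.2 CPM of Kcnip3-001, with the next Fmr1-KO library at 18 CPM, and all Kcnip3 counts of that replicate were assigned to this transcript. WT replicate 6, the shallowest library, had 254 CPM of Dpp6-006, with the next WT library at 374 CPM, and the value rests on 84.5 estimated counts.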

How the results depend on the processing

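No member gene passed under any of 27 alternatives, no member transcript under 27 and no member's transcript use under 21, but DESeq2 gave no adjusted p for 4 of 7 genes (Kcnd3, Kcnip3, Kcnip4 and Dpp10) and for 8 of 11 transcripts (5 of 11 at its default alpha), so these were not tested for a call there. The count of pathway genes was 1 (Cacna1g) with limma-voom and 0 under the other alternatives, where DESeq2 gave Cacna1g, Dlg1 and Kcnip1, among others, no adjusted p. The smallest adjusted p of a member was 0.155 for Dpp6 and 0.065 for Dpp6-006, both in DESeq2. DESeq2 was first run at its default alpha of 0.1 (11 of all genes called) and then at 0.05 (8 called), a change made after the first result was seen. Over all genes edgeR called 2, limma-voom 7, edgeR without a filter 5 and the TPM fits 0. The TPM fits moved the median of all genes by 0.55 and 0.62 on the log2 scale, and that of all transcripts by 0.52 and 0.66. Fold changes of genes from them are given relative to the gene shift, and those of transcripts relative to the transcript shift. The tests of the TPM fits were run on the unshifted values. Their p-values and the absence of calls there thus do not refer to the fold changes given.

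Kcnd2, Kcnd3, Kcnip4, Dpp6 and Dpp10 kept their direction in all 27. Their ranges were 0.1 to 0.2 for Kcnd2, −0.42 to −0.15 for Kcnd3, 0.13 to 0.24 for Dpp6 and −0.67 to −0.04 for Dpp10 (−0.08 with limma-voom). Kcnip4 ran from −0.11 to 0.0 after rounding, so its direction rests on very small values. The direction changed as follows, for fold changes that were near 0 or had wide intervals and with the cause not tested. With library totals, the log2 fold change was 0.01 for Kcnip2, 0.01 for Kcnip3 and 0.03 for Kcnip2-003. With log2(TPM + 1) it was 0.0 for Kcnip2, 0.1 for Kcnip3, −0.3 for Dpp10-001 and 0.08 for Kcnip2-003. With log2(TPM + 0.1) it was 0.11 for Kcnip3 and −0.14 for Dpp10-001. Without a filter and with 1 CPM in 8 libraries, Kcnip2-003 gave 0.02 and 0.01. For Kcnip3-003, limma-voom gave −0.17 and the omission of WT replicates 3 and 6 gave −0.04. Leaving out 1 library at a time gave −0.15 to 0.06 for Kcnip3, −0.11 to 0.25 for Dpp10-001, −0.06 to 0.37 for Dpp6-002, −0.14 to 0.05 for Kcnip4-001 and −0.06 to 0.04 for Kcnip2-003. The mean Kcnd3 and Dpp10 counts of 27.8 and 44.5 per library limit what their tests can detect.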

Other observations

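Of 12 ratios of member TPM within libraries, the ratio of Kcnip2 to Dpp6 was singled out after its values were seen and was not tested. It ran from 0.738 through a median of 0.992 to 1.17 in Fmr1-KO and from 0.968 through 1.18 to 1.36 in WT. No Fmr1-KO library exceeded the WT median, and 3 of 8 lay below the lowest WT library. Without WT replicates 3 and 6 the WT range was 0.968 to 1.25. The ratio of Dpp6 to Kcnd2 had medians of 1.59 in Fmr1-KO and 1.54 in WT.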
